A study of Mus musculus with 20 samples.

Results

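Haploid round spermatids were compared with preleptotene spermatocytes, the germ cells that replicate their DNA on the way into meiosis, for where and how strongly their mRNAs carried N6-methyladenosine (m6A). The labels describe C57BL/6 mouse cells of each stage, name no genotype or treatment, and do not give the animals' age or say how the cells were isolated. Each stage had 2 libraries made from RNA pulled down with an m6A antibody and 2 input libraries of the RNA before pull-down, so that 8 of the 20 libraries of a series of 5 stages entered the comparison. Whether replicates are separate animals is not stated, so p-values here compare differences with the variation among those libraries, and that variation may be technical. Peaks of the same RefSeq transcript that shared at least 1 nt in both stages were paired, which gave 7296 pairs on 3592 genes from 10950 peaks in round spermatids and 18749 in preleptotene, of 84778 peaks in the series. Genes with at least 1 peak, called marked here, were counted by the stage of their peaks. Of 9356 genes marked in either stage, 1889 were marked in round spermatids only, 3743 in preleptotene only and 3724 in both.

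m6A is written on nascent mRNA by a methyltransferase built on Mettl3 and Mettl14, removed by the demethylases Fto and Alkbh5, and bound by YTH domain proteins and other readers that steer splicing, export, translation and decay. Preleptotene cells carry transcripts for DNA replication and for the axis and recombination machinery of meiotic prophase. Round spermatids have finished both divisions and make the acrosome, the flagellum and the proteins that replace histones, many of them from mRNAs stored for later translation. In a pull-down experiment the enrichment of a peak is the log2 ratio of antibody-bound RNA to input RNA, so a gene has a peak only where its RNA is present and methylated, and transcript levels were not analysed here. In these bulk samples fewer cells of a type and less RNA per cell cannot be told apart.

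Mapped reads per library were 14495720 to 22402907 in round spermatids and 10456804 to 15758318 in preleptotene. Peaks on marker genes were set beside the labels. The marker lists were chosen with earlier results of these data known, so this is not an independent check. A missing peak also does not show that the RNA was absent. Of 17 round spermatid markers, 10 were marked in round spermatids and 0 in preleptotene. The other 7, among them Prm2, Tnp1 and Tnp2, had no peak in either stage. In pachytene/diplotene 8 of the 17 were marked. Of 10 preleptotene markers, 4 (Meioc, Rec8, Smc1b and Sycp3) were marked in round spermatids and 9 in preleptotene, among them Stra8, Dmc1 and Prdm9. In undifferentiated spermatogonia 7 of the 10 were marked, in type A1 spermatogonia 7 and in pachytene/diplotene 6, so these peaks do not single out preleptotene. Markers of somatic testis cells (Sertoli, Leydig, stromal and blood cells) were marked in 3 of 57 cases in round spermatids (Clu, Ctsl and Tjp1) and in 11 of 57 in preleptotene. In preleptotene these were 7 of 20 Sertoli markers, with log2 enrichments between 1.98 (Cst9) and 5.13 (Clu), 3 of 16 stromal markers (Acta2, Col3a1 and Pdgfra) and 1 of 9 Leydig markers (Star). The Sertoli-defining genes Sox9, Amh, Wt1 and Gata4 had no peak in either stage, nor had any of the 12 blood markers. Of 15 markers of undifferentiated spermatogonia, 0 were marked in round spermatids and 3 in preleptotene (Foxo1, Sdc4 and Zbtb16). The part of somatic or spermatogonial RNA in the genes marked in preleptotene was not tested.

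At transcript positions marked in both stages, 470 pairs were higher and 786 lower in round spermatids relative to all pairs, and the other 6040 did not pass the test. Paired peaks made up 59.5% of the peaks of round spermatids and 35.2% of those of preleptotene, with a median overlap of 161 nt. The deposited enrichments are on unlike scales. Their medians over the pairs were 1.85 and 1.78 in the replicates of round spermatids, against 3.29 and 3.29 in those of preleptotene, and their SDs over the pairs were 0.722 and 0.730, against 1.03 and 1.01. Each replicate was therefore centred on its own median, and a difference below is round spermatids minus preleptotene on this centred log2 scale: it says whether a peak was stronger or weaker than the typical pair of its stage, not whether absolute methylation was higher. Of the 7296 pairs, 55.3% differed by less than 0.5, and 90% of the differences lay between -1.43 and 1.03. The means of the stages correlated across pairs at r = 0.641 (Spearman's rho 0.643), while replicates correlated at 0.847 in round spermatids and 0.869 in preleptotene. With limma, 1256 pairs (17.2% of those tested) differed at an adjusted p under 0.05. The 470 higher pairs (6.44%) lay on 383 genes with a median difference of 1.16, and the 786 lower pairs (10.8%) on 611 genes with a median of -1.38. A peak was shared with another pair in 54.5% of the higher pairs, 32.8% of the lower pairs and 33.5% of all pairs. The 3 somatic markers marked in both stages had 8 pairs, 0 higher and 3 lower. The smallest difference that passed rounds to 0.85 in size, beside a median standard error of 0.280.

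**Figure D1:**
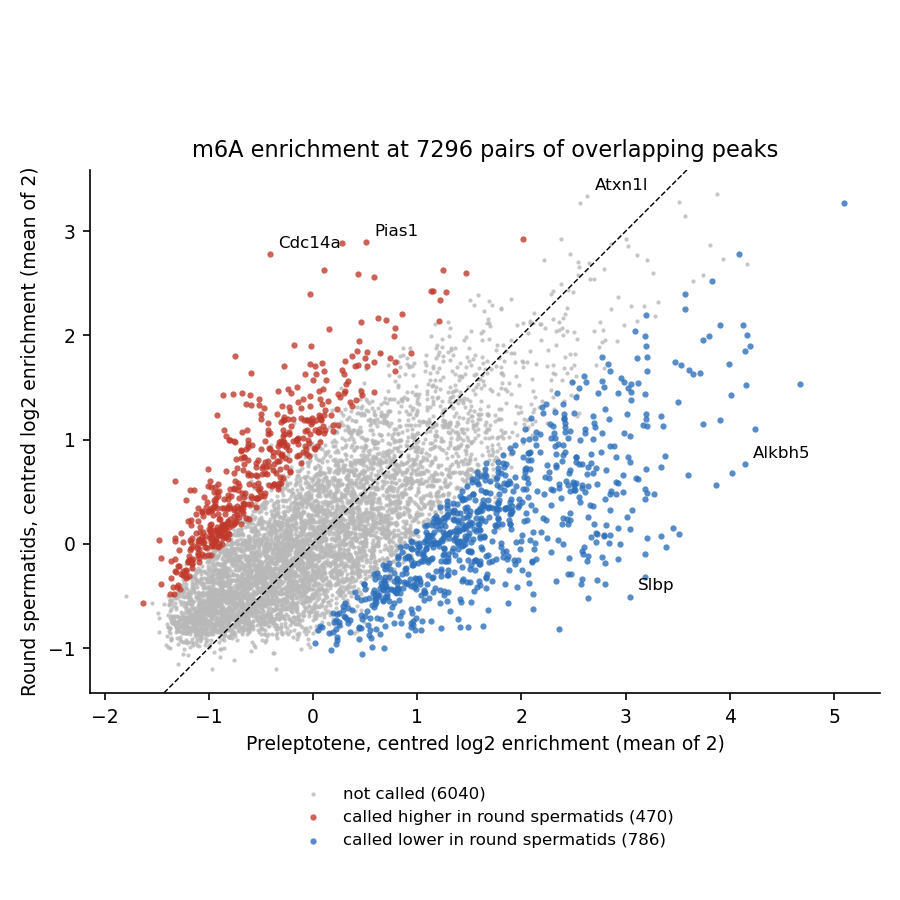
Each of the 7296 points is a pair of overlapping peaks, with the mean centred log2 enrichment of 2 replicates in round spermatids on the vertical axis and in preleptotene on the horizontal axis. The dashed line marks equal values, and the 470 pairs called higher (red) and 786 called lower (blue) in round spermatids lie on its 2 sides, the blue ones reaching up to a preleptotene value of about 5.

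The balance of the calls moved with the width of the distributions. Enrichments spread less in round spermatids, which by itself places strong peaks lower there. Among the 1824 pairs with the highest mean level 88 were called higher and 532 lower, while among the 1824 with the lowest level 89 were higher and 1 was lower (on the ubiquitin ligase gene Wwp1, named for this count). When each replicate was also divided by its median absolute deviation, 575 pairs (7.88%) were higher and 582 (7.98%) lower, so that the share of called pairs that were higher was 49.7% in place of 37.4%. In both scalings 383 pairs were higher and 542 lower. The count also changed when 1 replicate was left out. Such a fit takes its error from the 2 replicates of the other stage alone. The replicate SD over the pairs was 0.284 in round spermatids and 0.370 in preleptotene. A change in the count therefore cannot be assigned to the replicate left out. Without replicate 1 of round spermatids 41 pairs were higher and 184 lower, and without replicate 2 it was 85 and 349, whereas leaving out either preleptotene replicate left 435 to 580 higher and 748 to 852 lower. In both scalings and in every fit without 1 replicate, 25 pairs on 23 genes were higher and 161 pairs on 126 genes were lower.

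The called pairs with the highest differences lay on genes of varied function. The largest difference was on Cdc14a, a dual-specificity phosphatase gene at chr3:116272553-116428741 (GRCm38.p6, the assembly whose coordinates are those of mm10), in its 5′ UTR. Its log2 enrichment was 4.45 and 4.74 in round spermatids, against 2.85 and 2.91 in preleptotene. It stood far above the round spermatid median and below the preleptotene one in both replicates, and the difference was 3.19 ± 0.27 (SE, n = 2 against 2, limma adjusted p = 0.000866). Efhd1, a mitochondrial calcium-binding protein gene, had 3.70 and 5.70 in round spermatids, against 3.37 and 3.76 in preleptotene, at its start codon (difference 2.61 ± 0.55, limma adjusted p = 0.0149). Its replicates in round spermatids stood apart from each other, and the centred values of the stages did not overlap, as in 62.2% of all pairs. The SUMO ligase gene Pias1 had 5.19 and 4.22 in round spermatids, against 3.57 and 4.03 in preleptotene, also at the start codon (difference 2.39, limma adjusted p = 0.00346). The 3′ UTR peak of Atg4c, an autophagy protease gene, differed by 2.55, and the stop codon peaks of Poc1b, which codes for a centriole protein, and Itsn2, an endocytosis scaffold, by 2.43 and 2.29. The 10 leading genes were completed by Cfap97, D2hgdh, Klhl24 and Chd5, with differences of 2.16 (Chd5) to 2.52 (Cfap97). These 4 pairs were dropped when each peak was allowed a single partner, and the overlap was only 57 nt on D2hgdh, 15 nt on Chd5, 10 nt on Cfap97 and 2 nt on Klhl24.

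The 10 lowest called differences, on 10 genes, lay between -3.55 and -3.27. Slbp, at chr5:33640055-33652574, codes for the protein that binds the stem-loop of replication-dependent histone mRNAs. Its coding peak had 1.22 and 1.39 in round spermatids, against 6.59 and 6.08 in preleptotene, a difference of -3.55 ± 0.29 (SE, n = 2 against 2, limma adjusted p = 0.000866). A peak far above the median in preleptotene was thus below it in both round spermatid replicates. Taok1, a MAP kinase pathway kinase gene at chr11:77529162-77625359, had 1.25 and 1.73 in round spermatids, against 6.21 and 6.75 in preleptotene (difference -3.51, limma adjusted p = 0.000866). The 5′ UTR peak of the m6A demethylase gene Alkbh5, at chr11:60537683-60558512, had 1.79 and 3.37 in round spermatids, against 7.96 and 6.90 in preleptotene (difference -3.37 ± 0.52, limma adjusted p = 0.00484). Norad, a noncoding RNA that binds Pumilio proteins, had 1.79 and 3.19 in round spermatids, against 7.67 and 6.95 in preleptotene (difference -3.35). The groups were far apart at each of these, although the round spermatid replicates of Alkbh5 and Norad also stood apart from each other. The splicing factor gene Srsf2, the early endosome GTPase gene Rab5a and Wipf2, an actin regulator, fell at 5′ UTR peaks by 3.42, 3.31 and 3.30. Etnk1 (ethanolamine kinase), the X-linked kinase gene Rps6ka6 and the elongation factor gene Iws1 fell by 3.41, 3.28 and 3.27. One or both of the paired peaks also overlapped another on Slbp, Iws1, Alkbh5 and Rps6ka6, as on Efhd1 and Itsn2 above, and the pairs of Slbp and Iws1 were dropped when each peak was allowed a single partner. All 20 genes named in this and the preceding paragraph passed the test with scaled values and in each fit without 1 replicate, where the highest adjusted p among them was 0.0469 (Efhd1).

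**Figure D2:**
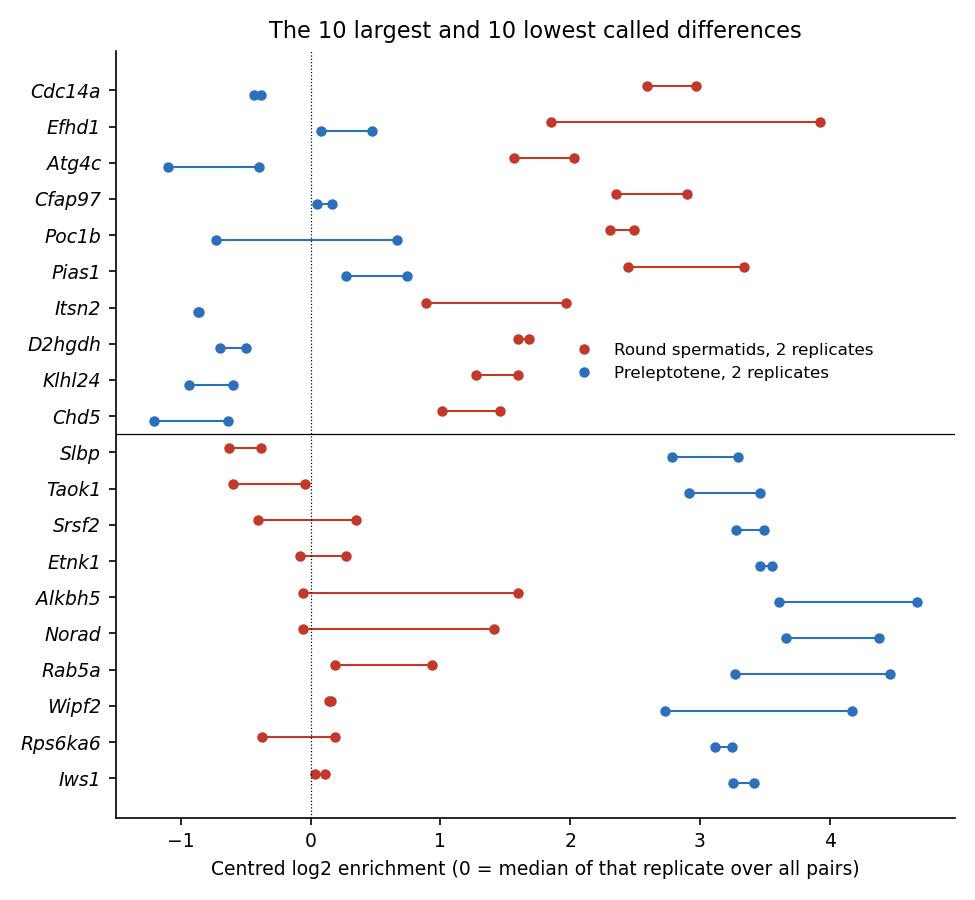
Points are the centred log2 enrichments of the 2 replicates of round spermatids (red, upper of each pair of rows) and preleptotene (blue, lower), joined by a line, for the 10 genes with the highest and the 10 with the lowest differences among called pairs, with 0 at the median of that replicate over all pairs. The red and blue points of a gene do not overlap in any of the 20 genes, as in 62.2% of all pairs.

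The strongest pairs of the stages overlapped in part. Of the 100 strongest pairs of each stage 28 were the same, and of the 500 strongest 190. The 5 genes whose weakest of 4 values was highest were Atxn1l, Ccnyl1, Aff4, Malat1 and Nxf1, a set that holds a transcriptional repressor, a cyclin-like gene, an elongation complex scaffold, a nuclear noncoding RNA and the main mRNA export receptor. Atxn1l had 5.43 and 4.87 in round spermatids, against 5.92 and 5.92 in preleptotene. Malat1 had 4.70 and 4.64 in round spermatids, against 6.42 and 6.20 in preleptotene. The differences of the 5 lay between -0.42 (Aff4) and 0.71 (Atxn1l), and 0 of the 5 passed the test (limma adjusted p 0.112 to 0.698). With scaled values all 5 differences were above 0, and those of Atxn1l (1.80), Nxf1 (1.51) and Malat1 (0.88) passed it.

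Pachytene/diplotene spermatocytes, the stage between, gave a further reading of the same positions. A peak of that stage overlapped 80.2% of the pairs called higher, 86.8% of those called lower and 84.0% of all pairs. Along preleptotene, pachytene/diplotene and round spermatids the median centred enrichment of the higher pairs was -0.56, 0.18 and 0.69. That of the lower pairs was 1.61, 0.87 and 0.14, and that of the pairs that did not pass was -0.05, -0.11 and -0.03. The middle stage thus lay between the others at the median of both called groups. The outer values chose the groups, so only the middle value is new here, and it is given as a description.

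Peaks near the 5′ end of transcripts and on noncoding RNAs were called lower in round spermatids more often than the 10.8% of all pairs. By the location label of the round spermatid peak, 44 of 215 pairs in 5′ UTRs (20.5%) and 112 of 651 at start codons (17.2%) were lower, against 435 of 4799 in coding sequence (9.06%), 107 of 898 at stop codons (11.9%) and 74 of 659 in 3′ UTRs (11.2%). Higher pairs were 5.61% to 6.98% of each of these classes. On noncoding RNAs 14 of 74 pairs (18.9%) were lower and 7 (9.46%) higher. Over the 215 pairs in 5′ UTRs the median centred enrichment was 0.18 and 0.43 in round spermatids, against 0.72 and 0.52 in preleptotene, so that both preleptotene replicates were above both of round spermatids. The median difference was -0.26 in 5′ UTRs, -0.04 at start codons, 0.09 in coding sequence, -0.02 at stop codons and 0.03 in 3′ UTRs. On noncoding RNAs it was 0.06, as over all pairs (0.06). With scaled values the 5′ UTR median was -0.10, with 20 pairs higher and 30 lower, and start codons had 47 higher and 77 lower. Noncoding RNAs then had 10 higher and 10 lower. Without 1 replicate in turn the 5′ UTR median ranged from -0.34 to -0.07. In 78 genes with a pair at both codons, the difference at the stop codon exceeded that at the start codon in 46, and the median of stop minus start over the 78 was 0.24. The round spermatid replicates stood apart in this: the centred enrichment at the stop codon minus that at the start codon had a median of 0.06 in replicate 1 and -0.23 in replicate 2 of round spermatids, against -0.33 and -0.31 in preleptotene. The share of round spermatid peaks with a preleptotene partner was highest at stop codons (66.1%), lower in coding sequence (62.1%), 3′ UTRs (60.2%), start codons (54.3%) and 5′ UTRs (50.6%), and lowest on noncoding RNAs (16.6%). Start and stop codon labels occur in the round spermatid table and not in that of preleptotene, so the round spermatid label was used throughout. Of 1633 pairs with a blank preleptotene label, 76.1% lay at a start or stop codon in round spermatids.

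**Figure D3:**
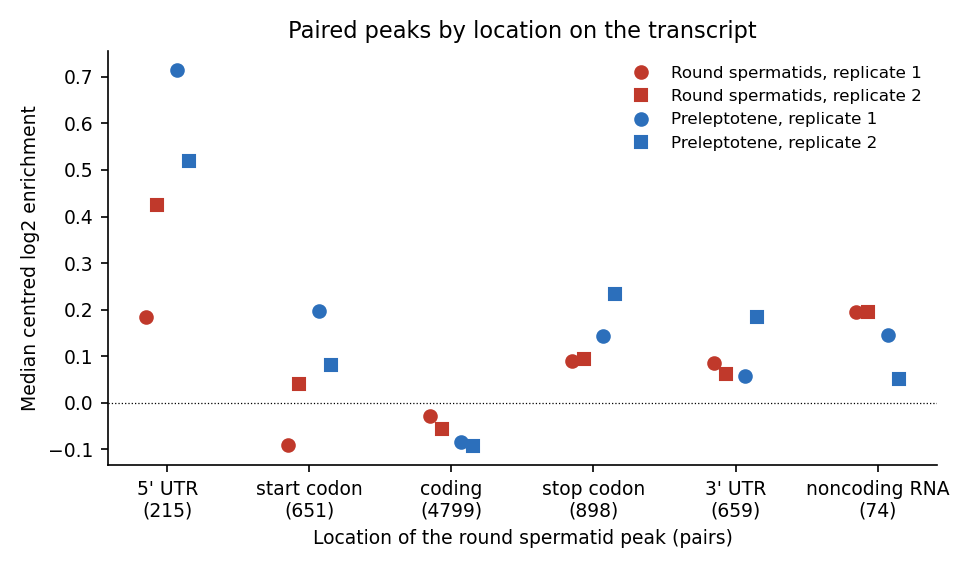
Points are the median centred log2 enrichments of each replicate of round spermatids (red) and preleptotene (blue) over the pairs in each location class, with the number of pairs in brackets. The 5′ UTR class has the largest gap, with both round spermatid medians (0.18 and 0.43) below both preleptotene medians (0.72 and 0.52).

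Some transcripts had several pairs called in 1 direction, and a few had pairs called in both. Genes with 2 or more pairs numbered 1728, with at most 14 pairs on a gene. All 6 pairs of Alkbh5 were lower, by 1.05 to 3.37, from its 5′ UTR to its stop codon, and 4 of the 6 also with scaled values and 3 in every fit without 1 replicate. On Chd5, a remodeler needed to remove histones in spermatids, 6 of 12 pairs were higher and 0 lower, of which 5 also passed with scaled values and 1 in every fit without 1 replicate. Pairs called in both directions occurred in 23 genes, and in 4 (Cops2, Mrfap1, Rc3h2 and Rlf) when each peak was allowed a single partner. Mrfap1 and Rlf are named for that count and not by the rule for named genes. On Rc3h2, which codes for an mRNA decay factor, the coding peak at positions 3477 to 3657 of the transcript had 1.63 and 1.86 in round spermatids, against 4.77 and 4.80 in preleptotene, and differed by -1.56. Its 3′ UTR peak at 5864 to 6018 had 4.22 and 4.26 in round spermatids, against 4.76 and 4.09 in preleptotene, and differed by 1.29. The coding peak was thus the weaker of these peaks in round spermatids, and not in preleptotene. Both passed the test with scaled values, and both lost the call in a fit without 1 replicate (highest adjusted p 0.0803 and 0.121). Of the 3724 genes marked in both stages, 132 (3.54%) had no overlapping peaks. Among the strongest of these was Aqp7, a water and glycerol channel gene, with a 5′ UTR peak at 88 to 254 (2.51 and 2.50) in round spermatids and a 3′ UTR peak at 2121 to 2276 (2.69 and 2.66) in preleptotene. Rnf138, a ubiquitin ligase gene, had 5′ UTR peaks in both stages, at 41 to 198 in round spermatids and at 301 to 498 in preleptotene.

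Fewer genes were marked in round spermatids than in preleptotene. Genes marked in round spermatids only were 20.2% of the 9356, those in preleptotene only 40.0% and those in both 39.8%, so that 66.3% of the genes of round spermatids and 49.9% of those of preleptotene were shared. Among shared genes 617 had more peaks in round spermatids, 1374 as many and 1733 fewer. Each stage has 1 list of peaks, so presence has no replicate error. The lists also reach to unlike depths: the lowest mean log2 enrichment listed was 0.61 in round spermatids, against 1.42 in preleptotene. With the higher of these as the minimum in both, 1242 genes were marked in round spermatids only and 4496 in preleptotene only. With equal numbers of peaks taken from the top of each list, the counts were 2554 and 2616.

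Genes marked in round spermatids only had 1 peak in 61.9% of cases, and 54.7% were also marked in pachytene/diplotene, 23.0% in undifferentiated spermatogonia and 13.5% in type A1 spermatogonia. In 688 of the 1889 no other table held a peak. They were led by Cmtm2a, a MARVEL domain gene at chr8:104281042-104293181, with 5.89 and 5.44. Dpy19l2, at chr9:24557047-24696457, whose product anchors the acrosome to the nucleus, followed with 4.73 and 5.09. Hydin, a flagellar central pair gene, had 8 peaks, the strongest with 4.76 and 4.14. The homeobox gene Hoxd8 had 4.57 and 4.55, the calmodulin-dependent phosphodiesterase gene Pde1c 4.85 and 4.17, and the ion channel gene Tmem63c 4.35 and 3.92. Slc14a2 (a urea transporter), Shisa3 (a Wnt and FGF signalling antagonist) and Peli2 (a ubiquitin ligase) were the other coding genes among the first 10.

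Genes marked in preleptotene only were also marked in undifferentiated spermatogonia in 87.1% of cases, in type A1 spermatogonia in 75.6% and in pachytene/diplotene in 42.4%. They were led by Relch, an endosomal lipid transport gene, with 8.17 and 7.91, and by Lonrf3, an X-linked RING finger gene with 6 peaks, the strongest with 7.74 and 7.82. The mitophagy receptor gene Bnip3 had 7.41 and 7.42, and the actin nucleation gene Actr3 had 7.87 and 7.0. The histone chaperone gene Rbbp7, also X-linked, had 7.21 and 6.94, and H3f3b, a gene for the histone variant H3.3, had 6.99 and 6.92. The transcription factor genes Foxn2 and Yy1, the lactate transporter gene Slc16a1 and the phosphoinositide-binding protein gene Plekha1 completed the first 10, with 6.49 (Plekha1) to 7.63 (Yy1) in preleptotene. The strongest peaks on genes of this stage alone thus reached the top of the preleptotene range, which ended at 8.38, while the median over all 3743 was 3.17.

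Sperm-building genes were marked mostly in round spermatids. Of the 23 acrosome genes marked in either stage, 18 (78.3%) were marked in round spermatids only, 3 in both and 2 (Vps54 and Gopc, which act in Golgi traffic) in preleptotene only. The lowest mean log2 enrichment listed in preleptotene was 1.42. Acr, Actl7a, Actl9, Ccin, Fam170a, Izumo1, Izumo2, Spam1, Spata16, Tmem95 and Zpbp had their strongest peak below it, at 0.89 (Zpbp) to 1.37 (Spam1). So had flagellar genes such as Akap4 (1.23), and 34.3% of all genes marked in round spermatids only. Zpbp2, an acrosomal zona-binding protein gene, had 2.00 and 2.57 in round spermatids, and Izumo3 1.99 and 2.28. Of 55 genes of the axoneme, flagellum and intraflagellar transport, 39 (70.9%) were marked in round spermatids only, among them the central pair gene Spag6l (3.77 and 3.58) and the dynein heavy chain gene Dnah7a (3.16 and 2.93, 8 peaks). Dnah7a has near-identical copies, between which reads cannot always be told apart. In both stages 15 were marked, and in preleptotene only 1, Iqcg. Of 21 sperm ion channel and signalling genes 13 were marked in round spermatids only and 0 in preleptotene only. These included Catsper1, the pore of the sperm calcium channel (3.11 and 2.92), the sodium pump gene Atp1a4 (3.10 and 2.41) and Pkdrej (2.90 and 2.58). All 3 shares lay above the 20.2% of all marked genes.

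Where such genes had overlapping peaks, the median differences of the lists lay above the 0.06 over all pairs, although single pairs lay below it, down to -0.74 on Ift52. The 23 pairs of the flagellar genes had a median of 0.49, with 1 higher and 0 lower, and the 9 pairs of the ion channel genes 0.49, with 2 higher and 0 lower. The 4 acrosome pairs had a median of 0.19 with 1 higher. Over all pairs 6.44% were higher and 10.8% lower. Without replicate 2 of round spermatids the ion channel median was 0.77, and without replicate 1 of preleptotene the acrosome median was 0.47. The calcium pump gene Atp2b4 had 3.40 and 3.12 in round spermatids, against 3.03 and 3.14 in preleptotene, a difference of 1.65 (limma adjusted p = 0.00498). The exchanger gene Slc9b1 differed by 1.49, Acrbp, which codes for the proacrosin-binding protein, by 1.21 and Ift81, a subunit of the intraflagellar transport particle, by 1.10. All 4 lost the call in a fit without 1 replicate (highest adjusted p 0.0623 for Atp2b4, 0.0946 for Slc9b1, 0.236 for Acrbp and 0.210 for Ift81), and Ift81 also with scaled values (0.0633).

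The genes that reshape the spermatid head and its chromatin were more evenly divided. Of 23 marked, 11 were marked in round spermatids only, 8 in both and 4 (H3f3b, Iqcb1, Kifc1 and Rnf8) in preleptotene only. Those of round spermatids included the protamine gene Prm1 (2.53 and 2.01), Lrguk (3.10 and 2.62) and Rimbp3 (1.83 and 2.44). Of their 17 pairs 0 were higher and 2 lower (11.8%, against 10.8% of all pairs). Kif3a, a kinesin motor gene, had 1.0 and 1.32 in round spermatids, against 4.48 and 3.81 in preleptotene (difference -1.51, limma adjusted p = 0.0141). Ube2b differed by -0.97. Without 1 replicate the highest adjusted p was 0.128 for Kif3a and 0.268 for Ube2b, and with scaled values that of Ube2b was 0.0785. Among glycolytic enzymes 14 of 23 genes were marked in round spermatids only, including the sperm isozymes Gapdhs (2.79 and 3.10), Eno4 (2.35 and 2.17), Pgk2 (1.82 and 1.78) and Ldhc (1.82 and 1.46). The 14 also held Gapdh, Ldha, Tpi1, Pfkm, Pfkp and Pfkfb3, which are not sperm isozymes. The 4 marked in preleptotene only were Eno1, Ldhb, Pgam1 and Pgk1, the X-linked somatic counterpart of Pgk2, with 3.46 and 3.28. None of the 7 glycolytic pairs passed the test (largest size 0.63 on Dld, limma adjusted p = 0.170).

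Transcription regulators of the late germ line were marked in round spermatids only in 6 of 24 cases (Fhl5, Kctd19, Ovol1, Rfx4, Sox5 and Sox6), in preleptotene only in 5 (Crem, Rfx3, Rfx7, Taf4b and Zfx) and in both in 13. Of 24 pairs 1 was higher (4.17%, against 6.44% of all pairs) and 4 lower (16.7%, against 10.8%). The X-linked TFIID subunit gene Taf9b, at chrX:106206874-106221158, had 3.30 and 3.38 in round spermatids, against 7.64 and 7.25 in preleptotene, at its start codon (difference -2.63, limma adjusted p = 0.00116). Mybl1, which codes for the A-MYB activator of pachytene genes, had 1.81 and 1.83 in round spermatids, against 5.07 and 5.76 in preleptotene (difference -2.12, limma adjusted p = 0.00316). Both kept the call without any 1 replicate. The Mybl1 pair shared only 79 nt and each of its peaks had another partner. The other 2 pairs of Mybl1, of longer overlap, differed by -0.95 and 0.69 and did not pass the test. Tcfl5 differed by 1.28 at a pair that shared only 53 nt, while its other 2 pairs (0.96 and -0.10) did not pass the test, and the X-linked Taf7l differed by -1.26. These lost the call without 1 replicate (highest adjusted p 0.157 and 0.226), and Taf7l also with scaled values (0.0673).

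Genes of early meiosis were marked mostly in preleptotene or in both stages. Of 65 genes of the meiotic axis, cohesin and recombination, 34 (52.3%) were marked in preleptotene only, against 40.0% of all marked genes, 30 in both and 1 (Meikin, a kinetochore regulator of the first division, 1.84 and 2.18) in round spermatids only. Those of preleptotene only included the DNA damage kinase gene Atm (6.22 and 5.80, 10 peaks), the helicase gene Brip1 (6.13 and 5.87) and the crossover gene Msh4 (5.34 and 4.63). The 64 shared pairs had a median difference of 0.00, with 0 higher and 2 lower (3.1%, against 10.8% of all pairs). Sycp1, which codes for the transverse filament of the synaptonemal complex, had 1.87 and 1.62 in round spermatids, against 6.28 and 5.46 in preleptotene, at its start codon (difference -2.64, limma adjusted p = 0.00176), and kept the call in every fit without 1 replicate. Its coding peak at positions 2214 to 2350 of the transcript differed by -0.28 (limma adjusted p = 0.471). The other lower pair, on Zfp318, differed by -1.17 and lost the call without 1 replicate (highest adjusted p 0.149). Of 20 genes of meiotic entry and retinoic acid response, 0 were marked in round spermatids only, 13 in preleptotene only and 7 in both. They included Dmrt1 (6.36 and 5.95), Kit (5.79 and 5.17) and Stra8 (3.10 and 2.85), the retinoic acid target needed to start meiosis. Meioc, which stabilises the meiotic program, was marked in both, with a strongest peak of 1.45 and 1.21 in round spermatids, against 6.30 and 5.50 in preleptotene. These uncentred values are on unlike scales, and the overlapping pair on Meioc did not pass the test. The 12 pairs of the list had a median of -0.01, with 1 higher (Tex14, 0.96, with an overlap of 15 nt, lost without 1 replicate at an adjusted p of 0.348).

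Of 73 genes of DNA replication and the cell cycle, 4 (Ccna1, Ccnb1, Rbl2 and Ttk) were marked in round spermatids only. In preleptotene only there were 45 (61.6%, against 40.0% of all marked genes), and 24 were marked in both. Ccna1, the cyclin A of meiotic divisions, had 1.31 and 1.20 in round spermatids, below the lowest mean listed in preleptotene (1.42). Its mitotic counterpart Ccna2 had 6.43 and 4.52 in preleptotene, on the unlike scale of that stage. The pocket protein genes were divided too, with Rbl1 marked in preleptotene only (5.02 and 5.33). Of 45 pairs 0 were higher and 3 lower (6.67%, against 10.8% of all pairs). The lower pairs lay on Rb1 (-1.39), the primase gene Prim2 (-1.10) and the mitotic kinase gene Wee1 (-1.03). Each lost the call without 1 replicate (highest adjusted p 0.101, 0.263 and 0.248), and Wee1 also with scaled values (0.206). Of 36 marked genes for cytosolic ribosomal proteins, 3 (Rpl22l1, Rps15a and Rps26) were marked in round spermatids only, 12 in preleptotene only and 21 in both, and 45 others of the list had no peak in either stage. Ribosomal protein genes have many processed pseudogenes, which can share their reads. Their 24 pairs had a median difference of 0.37, but 0.00 with scaled values, and 0 passed the test (the largest, on Rpsa, was 0.92 at a limma adjusted p of 0.0502).

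**Figure D4:**
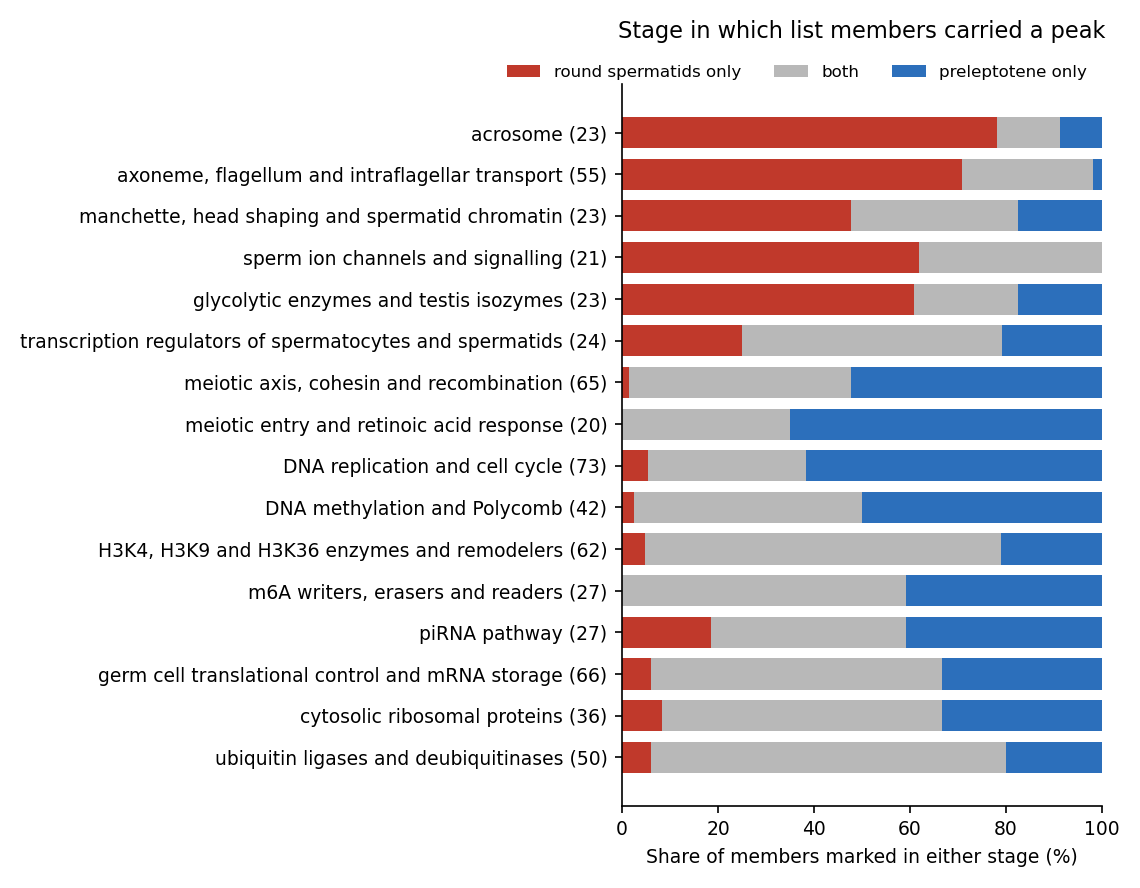
Bars split the members of each gene list that were marked in either stage (number in brackets) into the share marked in round spermatids only (red), in both (grey) and in preleptotene only (blue), as a percentage. The first 5 lists, of sperm-building genes and of glycolytic enzymes, have 47.8% to 78.3% in red, and the lists of early meiosis and replication have 0% to 5.48%. Apart from the transcription regulators (25%), the remaining lists also lie below the 20.2% of all marked genes. They range from 0% (m6A machinery) to 18.5% (piRNA pathway).

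Enzymes of histone methylation and remodelers were mostly marked in both stages, and their pairs were called about as often as all pairs or less. Of 62 enzymes of H3K4, H3K9 and H3K36 methylation and remodelers, 46 (74.2%, against 39.8% of all marked genes) were marked in both, 3 (Chd7, Setd1b and Smarca2) in round spermatids only and 13 in preleptotene only, among them the X-linked demethylase gene Kdm6a (5.86 and 5.71). Of 167 pairs 11 were higher (6.59%, against 6.44% of all pairs) and 12 lower (7.19%, against 10.8%), with a median of 0.03. The H3K36 methyltransferase gene Nsd2 had 1.71 and 1.64 in round spermatids, against 5.47 and 6.02 in preleptotene (difference -2.60, limma adjusted p = 0.00143). Kmt2e and the ISWI remodeler gene Smarca5 differed by -2.31 and -2.13 at 5′ UTR peaks. Chd5 accounted for 6 of the 11 higher pairs. Nsd2 and Chd5 kept a call without any 1 replicate, while Kmt2e and Smarca5 did not (highest adjusted p 0.0685 and 0.0771).

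Of 42 genes of DNA methylation and Polycomb repression, 1 (Zfp57, an imprinting factor) was marked in round spermatids only, 21 in preleptotene only and 20 in both. Those of preleptotene only included the methyltransferase gene Dnmt3a (5.39 and 5.26) and Cbx2 (5.09 and 5.35). Of 52 pairs 3 were higher (5.77%, against 6.44% of all pairs) and 7 lower (13.5%, against 10.8%), and the directions fell on different genes. Bmi1, of the repressive complex that ubiquitinates H2A, had 1.72 and 2.06 in round spermatids, against 6.15 and 6.01 in preleptotene (difference -2.71, limma adjusted p = 0.00103). Mtf2 and Suz12, of the complex that methylates H3K27, differed by -2.51 and -2.08. All 3 higher pairs lay on Cbx7, a reader of that methylation. Its leading 3′ UTR peak had 3.60 and 3.44 in round spermatids, against 3.15 and 2.87 in preleptotene (difference 1.99, limma adjusted p = 0.00239). The pairs given here for Bmi1, Mtf2, Suz12 and Cbx7 kept the call in every fit without 1 replicate. With scaled values 4 pairs of the list were higher and 3 lower.

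The transcripts of the m6A machinery were themselves marked. Of 27 marked genes of writers, erasers and readers, 0 were marked in round spermatids only. In preleptotene only there were 11 (40.7%, against 40.0% of all marked genes), and 16 were marked in both. The writers Mettl3 (1.78 and 2.54) and Mettl14 (4.90 and 3.75) and the readers Ythdf1 (5.19 and 4.67) and Fmr1 (5.88 and 4.68, X-linked) were among those of preleptotene only. Of the 45 pairs, 1 was higher (2.22%, against 6.44% of all pairs) and 12 lower (26.7%, against 10.8%). Their median difference was -0.24. Of the lower pairs 6 lay on Alkbh5, and the pairs of a gene are not independent. The reader gene Ythdf3 had 2.20 and 2.08 in round spermatids, against 5.80 and 6.49 in preleptotene (difference -2.53, limma adjusted p = 0.00174). The reader gene Igf2bp1 differed by -1.63 and the translation factor gene Eif3a by -1.26. The single higher pair lay on Fto, the other eraser, with 2.47 and 2.74 in round spermatids, against 2.84 and 2.81 in preleptotene (difference 1.25, limma adjusted p = 0.0151). The peaks of the 2 erasers were thus called in opposite directions. The leading pairs of Alkbh5 and Ythdf3 kept the call without any 1 replicate, and those of Igf2bp1, Eif3a and Fto did not (highest adjusted p 0.0826, 0.200 and 0.134). With scaled values 1 pair was higher and 8 were lower, and without replicate 1 of preleptotene the median was -0.06.

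Genes of mRNA storage and translational control, which in spermatids hold back mRNAs until they are needed, were marked in both stages in 40 of 66 cases. In round spermatids only 4 were marked (Papolb, Rbms1, Samd4 and Tent5c), including the testis poly(A) polymerase gene Papolb, and in preleptotene only 22, including the germ cell translation factor gene Dazl (5.72 and 5.53). Of 105 pairs 4 were higher (3.81%, against 6.44% of all pairs) and 15 lower (14.3%, against 10.8%). With scaled values 2 were higher and 15 lower. The RNA-binding protein gene Larp4 had 2.35 and 2.53 in round spermatids, against 6.52 and 6.29 in preleptotene (difference -2.49, limma adjusted p = 0.00131). Cpeb4, a regulator of cytoplasmic polyadenylation, fell at its 5′ UTR peak (-2.03) and at its coding peak (-2.04), and the deadenylase gene Cnot6 at its start codon (-1.94). All of these kept the call without any 1 replicate. Tnrc6b, a partner of Argonaute, had 5 lower pairs among 11, the largest with a difference of -1.71 (highest adjusted p without 1 replicate 0.0740). Of 27 genes of the piRNA pathway, 5 (Gtsf1, Kif17, Morc2b, Piwil1 and Tdrd6) were marked in round spermatids only, 11 in preleptotene only and 11 in both. Piwil1, the Argonaute of pachytene piRNAs, had 1.75 and 1.42 and Tdrd6, a scaffold of the chromatoid body, 2.08 and 1.77 in round spermatids. Of 25 pairs 1 (4%, against 6.44% of all pairs) was higher, on Henmt1 (1.47), and 4 (16%, against 10.8%) were lower. The lower ones were led by the Mybl1 pair above and Tdrkh (-1.60). Henmt1 and Tdrkh lost the call without 1 replicate (highest adjusted p 0.0639 and 0.0512).

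Ubiquitin ligases and deubiquitinases were marked in both stages in 37 of 50 cases, in round spermatids only in 3 (Klhl10, Usp25 and Usp44) and in preleptotene only in 10. Of 116 pairs 8 were higher (6.90%, against 6.44% of all pairs) and 10 lower (8.62%, against 10.8%). With scaled values 12 were higher and 5 lower. The deubiquitinase gene Usp7 had 3.38 and 3.11 in round spermatids, against 3.10 and 2.28 in preleptotene (difference 2.03, limma adjusted p = 0.00498). Hectd2 had 1.48 and 3.16 in round spermatids, against 5.98 and 6.32 in preleptotene (difference -2.36, limma adjusted p = 0.0142). Usp7 kept its call without any 1 replicate, while Hectd2 and the higher pairs of Herc2 (1.90, overlap 48 nt) and Usp34 (1.45, overlap 7 nt) lost theirs (highest adjusted p 0.0758, 0.109 and 0.147).

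The X chromosome, which is silenced during pachytene and stays largely repressed in round spermatids, differed from the autosomes in the stage at which its genes were marked. Of 352 X-linked genes marked in either stage, 70 (19.9%) were marked in round spermatids only, 224 (63.6%) in preleptotene only and 58 (16.5%) in both. On single autosomes 15.5% to 30.8% were marked in round spermatids only, 29.7% to 43.6% in preleptotene only and 35.2% to 45.8% in both. The share in round spermatids only thus lay within the range of the autosomes, that in preleptotene only above it and that in both below it. The same genes were nearly absent from the pachytene/diplotene table. Of the genes marked in round spermatids only, 2 of 70 on the X (Car5b and Jpx) also had a peak there, against 57.3% of autosomal ones. Of those marked in preleptotene only it was 1 of 224 (Magt1), against 45.3%, and of those marked in both 2 of 58 (Chic1 and Vsig1), against 91.5%. These 5 genes are named for those counts, after their values were seen. The 81 X-linked pairs had a median difference of -0.32, beside 0.06 over all pairs, with 8 higher and 16 lower. Among all pairs 6.44% were higher and 10.8% lower. On the Y chromosome 16 of 31 genes were marked in round spermatids only, 13 in preleptotene only and 2 (Eif2s3y and Zfy1) in both.

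**Figure D5:**
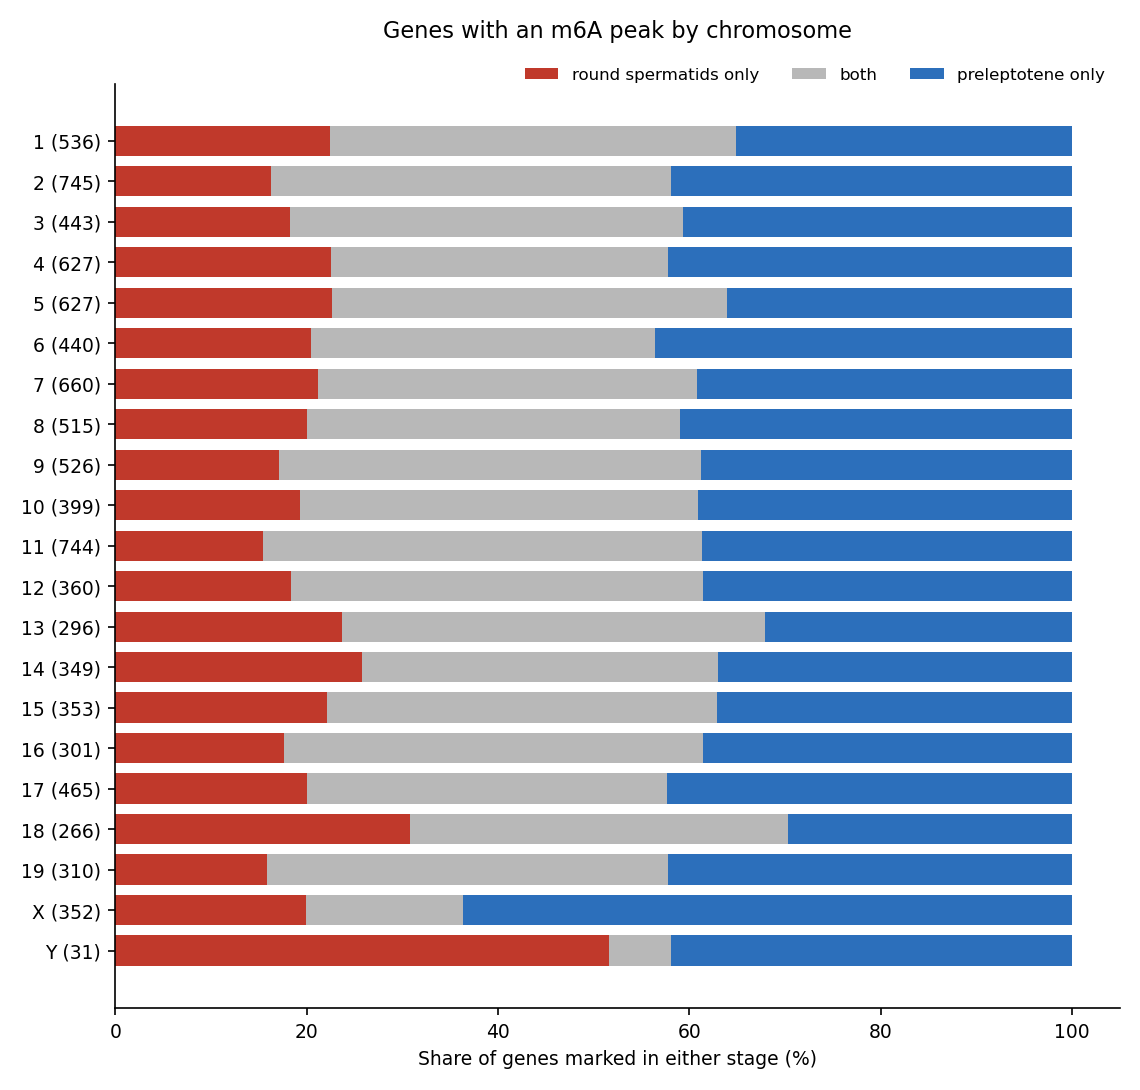
Bars split the genes of each chromosome that were marked in either stage (number in brackets) into the share marked in round spermatids only (red), in both (grey) and in preleptotene only (blue), as a percentage. The X chromosome has 63.6% in preleptotene only, above the 29.7% to 43.6% of the autosomes.

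Genes that are not protein coding and had a peak were mostly marked in round spermatids only. These are counts of peaks, not of transcripts present. The round spermatid list also reached lower (0.61, against 1.42 in preleptotene), and the part of this in the counts was not tested. Of the genes marked in round spermatids only, 239 (12.7%) were not protein coding, against 72 (1.92%) of those in preleptotene only and 38 (1.02%) of those in both. Long noncoding RNA genes numbered 200, against 43 and 22, and 68 of the 200 were also marked in pachytene/diplotene. The strongest was Slco6b1, annotated as a long noncoding RNA, with 4.84 and 4.52 in round spermatids.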

How the data were processed

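Per the file headers, the deposited tables place each peak on a RefSeq transcript of a gene with a location label, and give for each replicate a log2 enrichment of antibody-bound RNA over input. The authors called 1 list of peaks per stage. The submitters' processing notes name TopHat2 2.0.14 and the build mm10. Neither the peak caller nor how libraries were scaled to each other is given in the sources used here, and 10 columns of log2 ratios between stages were not used.

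Symbols, biotypes and gene coordinates come from RefSeq's GRCm38.p6 table, matched by gene, accession or synonym for all but 4 of 10950 peaks of round spermatids and 8 of 18749 of preleptotene. Peaks on the same transcript sharing 1 nt or more were paired, each of the 4 columns was centred on its median over the pairs, and limma 3.58.1 (lmFit, eBayes, R 4.3.3) was fitted to all 7296 pairs, 2 against 2, two-sided, with Benjamini-Hochberg adjustment over all pairs and calls at an adjusted p under 0.05. Depth behind single peaks was not used here, so precision comes from the 2 replicates of a stage. Replicate numbers were not treated as pairs: deviations of same-numbered replicates correlated between the stages at -0.05. Scripts were tested on simulated data.

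Alternatives covered scaling, overlap, single partners, low values, the prior and each replicate left out. The members, the 16 gene lists and the 7 marker lists were chosen with earlier results of these data known. Named genes are the 10 highest and 10 lowest called pairs, the 10 strongest genes marked in each stage only, up to 4 paired and 3 single-stage members per list, the markers, and the leading 5 without overlapping peaks, with most pairs, with calls in both directions and with the highest lowest value. Provisional symbols (Gm and Rik names, and those with a hyphen) were left out, and some genes were dropped for space. Positions of peaks are on transcripts and no transcript sequence was used here, so none is printed.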

Additional observations from a re-analysis of the deposited data

How the results depend on the processing

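With a replicate block 479 pairs were called higher and 836 lower in round spermatids, and no named call changed. MAD scaling, quantile normalization, the trended or robust prior and a shared minimum enrichment left the 3 counts of called pairs within 1.5 times, whereas no centring gave 6566 calls, 8 higher and 6558 lower. An overlap of at least 50% left 310 higher, and single partners left 825 calls, 265 of them higher, in fewer pairs. Without 1 replicate in turn the calls ranged over 225 to 1432, with 41 to 580 higher and 184 to 852 lower, lowest without replicate 1 of round spermatids. Genes marked in round spermatids only numbered 1242 with the same lowest enrichment and 1215 in the upper 50% of each table.

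Median differences with scaled values were 0.040 in coding sequence, 0.61 for ion channels, -0.090 for glycolytic enzymes, 0.090 for meiotic entry, -0.091 for the piRNA pathway and 0.0046 for ribosomal proteins. Without 1 replicate in turn they ranged over 0.057 to 0.11 in coding sequence, 0.057 to 0.15 on noncoding RNAs, 0.17 to 0.47 for acrosome, -0.23 to 0.11 for head shaping, 0.41 to 0.77 for ion channels, -0.00066 to 0.058 for the meiotic axis, -0.015 to 0.12 for meiotic entry, -0.25 to 0.13 for the cell cycle, -0.065 to 0.045 for Polycomb, -0.075 to 0.085 for H3K enzymes, -0.40 to -0.056 for the m6A machinery, -0.077 to 0.25 for the piRNA pathway and 0.20 to 0.32 for ribosomal proteins.

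Without centring the differences turned below 0 on Acrbp (-0.27), Ift81 (-0.37), Tcfl5 (-0.20), Tex14 (-0.52), Henmt1 (-0.0048), Usp34 (-0.027), Atxn1l (-0.77) and Nxf1 (-0.93). Those below 0 in the centred fit turned above 0 with scaled values on Ccnyl1 (0.97), Aff4 (0.76) and Malat1 (0.88), with quantile normalization on the same genes (0.90, 0.49 and 0.80), while without 1 replicate in turn Ccnyl1 ranged from -0.62 to 0.15. The cause of these turns was not tested. With 2 replicates a stage, the smallest differences called were 0.847 among higher and 0.858 among lower pairs in size.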
